A study of Mus musculus with 12 samples.

Results

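The genes described here are the 200 zinc finger genes named Zfp and a number that had the most reads in mouse oocytes. They were selected on the mean raw count over all 12 libraries of the count table. Of 374 genes in the table with a name of that form, Zfp36, Zfp57 and Zfp352 were set aside by the selection rule, which left 371 candidates, and the 171 with fewer reads fell under the limit. Just inside the limit, Zfp282 had a mean of 72.8 counts. Zfp28, Zfp346 and Zfp994 tied at 72.0, and Zfp994 was the one left out because ties were ordered by symbol. Zfp524, the next gene outside, had 70.1. The oocytes came from 3-week-old C57BL/6 females primed with PMSG, a hormone that makes follicles grow. They were wild type (WT) or carried a CRISPR-Cas9 deletion of the first exon of Alkbh5, start codon included (Alkbh5-/-, KO). This is a total knockout, so every cell of these mice, and not the oocyte alone, lacked the gene. Each genotype was sampled at the germinal vesicle stage (GV, 0 h), at germinal vesicle breakdown (GVBD, 4 h of culture) and at metaphase II (MII, 16 h). There were 6 groups of 2 libraries, each from pooled oocytes freed of the zona pellucida, with ERCC spike-in RNA added. ALKBH5 removes the m6A methyl mark from RNA, and the question was what its loss does to the oocyte's RNA through meiotic maturation. The study states that most KO oocytes did not complete maturation while samples were taken by time, so in the KO groups of later times a level at a stage and the stage reached cannot be told apart.

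Zinc finger proteins of the C2H2 type hold a zinc ion between a pair of cysteines and a pair of histidines in each finger, and a run of fingers reads DNA a few bases at a time. Many of them in the mouse also carry a KRAB box, which recruits the corepressor TRIM28 (KAP1) and heterochromatin to the bound site, often a retrotransposon. These genes arose by repeated local duplication and stand in tandem groups on several chromosomes. A growing oocyte stores their transcripts along with other maternal RNA, transcription then stops, and the store is partly degraded as meiosis resumes.

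The coding sequence of 1 finger is given here from each of 8 genes on which the genotype comparisons turn, because the first 4 are near copies of one another and the other 4 are not copies of these. The sequences were read from the GENCODE M21 transcripts (GRCm38) in coding direction, from the first cysteine of the finger through the linker that follows it. Capitals mark the codons of the 2 cysteines and 2 histidines that hold the zinc. All lie within the last coding exon.
Zfp966: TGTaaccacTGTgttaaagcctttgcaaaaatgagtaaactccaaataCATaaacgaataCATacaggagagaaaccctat
Zfp969: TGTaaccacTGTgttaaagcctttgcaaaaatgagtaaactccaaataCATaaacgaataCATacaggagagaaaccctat
Zfp965: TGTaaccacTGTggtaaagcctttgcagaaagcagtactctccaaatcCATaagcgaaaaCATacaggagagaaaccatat
Zfp973: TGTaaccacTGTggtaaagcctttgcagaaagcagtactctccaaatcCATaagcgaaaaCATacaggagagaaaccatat
Zfp820: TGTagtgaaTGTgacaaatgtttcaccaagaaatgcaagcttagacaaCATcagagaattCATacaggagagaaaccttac
Zfp992: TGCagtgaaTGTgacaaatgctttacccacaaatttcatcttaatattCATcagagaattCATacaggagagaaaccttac
Zfp870: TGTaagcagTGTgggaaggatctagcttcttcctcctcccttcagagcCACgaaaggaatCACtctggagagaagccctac
Zfp82: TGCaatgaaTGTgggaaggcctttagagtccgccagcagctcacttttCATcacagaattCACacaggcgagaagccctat

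The first 4 belong to a tandem group on chromosome 2. The finger of Zfp966, at chr2:175921199-175921279 on the minus strand, was identical in all 81 bases to that of Zfp969 at chr2:175693797-175693877 on the same strand. The finger of Zfp965 at chr2:175479750-175479830 and that of Zfp973 at chr2:176680287-176680367, both on the plus strand, were likewise identical. Between these pairs 71 of 81 bases matched (87.7%). Zfp820 (chr17:21819713-21819793, minus) and Zfp992 (chr4:146466547-146466627, plus) shared 67 of 81 bases although they lie on different chromosomes. Zfp870 (chr17:32882935-32883015, minus) and Zfp82 (chr7:30057158-30057238, minus) matched each of the others in 41 to 55 of 81 bases. Reads were counted only where they aligned at 1 place, so bases shared between genes bear on the counts. Cut into windows of 100 bases, 130 of the 200 genes had no window that also occurred in a transcript of another annotated gene, 38 had more than 5% of their windows shared and 11 more than 50%. Zfp969 shared all of its windows (100%, with Zfp968), Zfp965 93.4%, Zfp781 92.4%, Zfp966 79.9%, Zfp433 75.5%, Zfp973 73.2%, Zfp993 71.9% and Zfp978 60.5%. Zfp960, Zfp600 and Zfp97 shared 67.3 to 68.3%, and the counts of all these genes are uncertain. Zfp820, Zfp870 and Zfp618 shared none.

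The 200 genes were mostly KRAB zinc finger genes. By sequence patterns in the longest coding sequence of each gene, 106 had a KRAB box with fingers and 2 a KRAB box without, 81 had fingers without a KRAB or SCAN box, 4 had a SCAN box, a domain through which such proteins pair, but no KRAB box, 4 had no finger of the pattern searched, and 3 had no coding sequence that could be translated in full. Of these 3, Zfp939 and Zfp640 are annotated as pseudogenes and Zfp978 as protein-coding. Zfp110, counted with the KRAB genes, had both boxes. The number of fingers had a median of 11 and reached 36. Chromosome 7 held 45 of the genes, chromosome 17 held 23 and chromosome 2 held 17. Tandem groups of at least 4 members with gaps under 1 Mb numbered 14 and took in 74 of the 108 genes with a KRAB box (68.5%) but 15 of the 81 with fingers alone (18.5%). A KRAB box that departs from the patterns searched, or lies only in a shorter coding sequence, was not counted. The genes with fingers alone may thus include KRAB genes, and the tandem group at chr7:24134169-25227507 had 0 of 7 members with the pattern.

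Total counts ran from 28557742 to 40247810 per library, and the 200 genes together took 0.523 to 0.750% of the endogenous counts. Values below are raw counts divided by the library's share of ERCC spike-in counts ("spike-in scaled counts"). They follow the amount of poly(A) RNA per library. The study states a fixed number of oocytes per sample, but its methods and a figure legend give different numbers. In these pooled samples fewer cells and less RNA per cell thus cannot be told apart. The study also reports that poly(A) tails shortened through maturation in WT and that this was compromised in KO. The part of tail length in the counts was not tested. Alkbh5 had 5355 to 10181 raw counts in the WT libraries and 54 to 143 in the KO libraries. All 10 oocyte markers (Zp1, Zp2, Zp3, Gdf9, Bmp15, Ooep, Nlrp5, Dppa3, Mos and Figla) were present in every library. The cumulus and granulosa list summed to 28.4 to 47.0 CPM (counts scaled to the library's endogenous total) in WT and 35.8 to 76.6 in KO, higher in KO within each stage, with Amh at 0 in 11 libraries and Foxl2 in 10. Cyp19a1 (577 to 2225 raw counts), Kitl (73 to 263), Fshr (17 to 221) and Inhba (6 to 130) were present in all 12 libraries, and the other 4 genes of the list were at 0 in 1 to 9. The keratinocyte list summed to 13.3 to 78.5 CPM in WT and 4.27 to 12.6 in KO, with Krt14 and Krt5 at 0 in 10 libraries and Krt10 present in all 12 (127 to 988 raw counts). Heart (0.0673 to 142.7 CPM), liver (0 to 618.5) and blood (0.519 to 3329) lists varied widely, also within groups. The part of these lists in the differences below was not tested. The 2 KO MII libraries lay furthest apart: over the 200 genes replicate 1 exceeded replicate 2 by a median of 1.18 on the log2 scale, and 40 genes lay more than 2-fold from that median, against 9 to 26 genes in the other groups.

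The most abundant Zfp transcripts were a small set. The 5 genes with the most reads held 17.3% of the counts of all 200, the first 20 held 49.6% and the first 100 held 91.7%. By mean raw count Zfp655 led with 9408, followed by Zfp957 with 8137, Zfp979 with 6110 and Zfp958 with 5979. Next came Zfp277, which binds Polycomb proteins, with 5835, Zfp873 with 5756 and Zfp706, a small protein that restrains Klf4 in embryonic stem cells, with 5412. Zfp982, Zfp638, Zfp449, Zfp58, Zfp750, Zfp735, Zfp60, Zfp616, Zfp952, Zfp978, Zfp345, Zfp68 and Zfp791 completed the first 20.

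Per kb of exon length the order changed, and genes with short transcripts came to the front. Zfp982 stood first with a mean over the groups of 3586 scaled counts per kb and a range of 2391 to 5350 over the 12 libraries. Zfp958 followed with 2905 (569 to 4569), then Zfp978 with 2774 (2086 to 3436) on uncertain counts, Zfp957 with 2677 (1759 to 3874) and Zfp58 with 2359 (1042 to 3917). The library ranges of each of these neighbours overlapped, so their order is not resolved. Zfp655 was sixth with 1858 and Zfp979 eighth with 1550. Zfp58 shared 43.8% of its windows with Gm26965, and Zfp979 shared 21.5% of its windows with other genes. Zfp982, Zfp978 and Zfp979 stand within 1 tandem group on chromosome 4 (chr4:145670685-147848366). Zfp750, a regulator of epidermal differentiation whose finger is not of the pattern searched, had 1468 per kb, with a range of 324 to 2909. The genes with a KRAB box had a median of 95.5 per kb and those with fingers alone 75.05, which is a description, since level chose the genes.

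**Figure D1:**
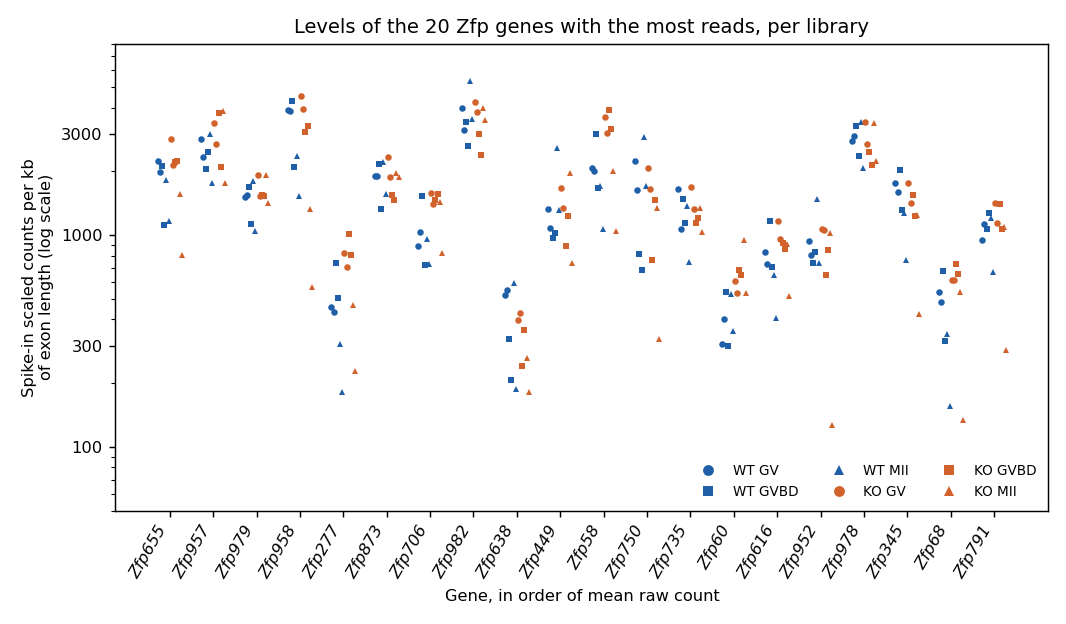
Spike-in scaled counts per kb of exon length (log axis) of the 20 Zfp genes with the highest mean raw count, 1 point per library, blue for WT and orange for KO, with circles for GV, squares for GVBD and triangles for MII. Zfp982, Zfp958, Zfp978 and Zfp957 lie highest, and a KO MII library lies far below the others for Zfp952 and Zfp791.

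None of the 20 passed the threshold in any of the 9 comparisons (edgeR, adjusted p under 0.05 and a log2 change of at least 1 in size). Zfp952 shows how far 1 library could stand apart: its scaled counts were 4496 and 554 in the KO MII libraries and 6457 and 3213 in WT MII. Of the 20, Zfp958 had the largest fall from GV to MII in KO on the fitted scale, with 10800 and 9322 scaled counts at GV and 3160 and 1345 at MII (log2 change -2.16 ± 0.62 SE, adjusted p = 0.0742). In WT its change was -1.0 ± 0.47 (adjusted p = 0.0934).

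At the GV stage no Zfp gene differed between genotypes by the threshold. All 200 were tested, 0 were higher and 0 lower in KO, where 0.0565% of all genes tested were called higher and 0.0411% lower. At an unadjusted p under 0.05 there were 40 (20% of the 200, against 17.9% of all genes tested). DESeq2 called 9, 8 of them higher in KO, and without a filter on low counts edgeR called 6. Neither count has the share of all genes beside it. The median log2 difference (KO minus WT) was 0.25 over the 200 and 0.36 over all genes tested. With TMM scaling, which sets the bulk of genes to no change, these medians became -0.12 and 0.00. The widest values at GV were those of Zfp82 (-3.85 ± 0.95, adjusted p = 0.166) and Zfp7 (3.16 ± 0.36, adjusted p = 0.0596).

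At GVBD 5 KRAB genes were lower in KO than in WT and none higher (2.5% of the 200 lower, against 1.73% lower and 0.807% higher of all genes tested). Zfp825 had 245.4 and 240.9 scaled counts in the WT libraries and was listed at 0 in both KO libraries. With 3 counts per library as the floor, that is at least 59.0-fold lower (adjusted p = 2.59e-05). Zfp993 had 171.6 and 128.4 in WT and 0 and 7.71 in KO (-5.10 ± 0.99, adjusted p = 0.00624), on counts that are uncertain for its shared windows. Zfp82 had 68.4 and 318.8 in WT against 8.22 and 8.81 in KO (-4.48 ± 0.86, adjusted p = 0.00569). Zfp820 had 288.3 and 131.1 against 21.4 and 38.6 (-2.79 ± 0.70, adjusted p = 0.035), and Zfp870 had 189.1 and 187.7 against 19.7 and 40.8 (-2.62 ± 0.69, adjusted p = 0.0455). The groups did not overlap for any of the 5. Zfp825, Zfp993 and Zfp82 passed the count filter through the WT libraries alone, so their p-values depend on that filter. The count was 0 with TMM, 1 with median-of-ratios scaling, 0 without either WT GVBD library, 3 without KO GVBD replicate 1 and 8 with DESeq2. Those counts have no share of all genes beside them. The keratinocyte list was also lower in KO at this stage (4.27 to 8.25 against 55.3 to 78.5 CPM), and its part was not tested.

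With the stages pooled in 1 fit that allowed for stage, 6 libraries of each genotype, 4 KRAB genes were lower in KO and 2 genes higher (2.0% and 1.0% of the 200, against 0.364% lower and 0.9% higher of all 22004 genes tested). Zfp820 ran from 131.1 to 371.7 scaled counts in WT (median 212.8) and from 17.2 to 71.1 in KO (median 41.1), with a log2 difference of -2.49 ± 0.43 (adjusted p = 0.015). Zfp870 ran from 123.4 to 217.1 in WT (median 181.2) and from 12.9 to 81.7 in KO (median 36.9), a difference of -2.32 ± 0.40 (adjusted p = 0.015). For both genes every KO library lay under every WT library, and neither shared a window with another gene. They lie on chromosome 17 in separate tandem groups, Zfp820 at chr17:21816885-21845772 among 11 members and Zfp870 at chr17:32879219-32891642 among 8. The other members of these groups did not pass, with medians of 0.15 and -0.05 over the whole groups.

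Zfp82 (chr7:30054489-30072900) ran from 49.4 to 383.6 in WT (median 195.0) and from 3.58 to 60.1 in KO (median 8.52), with a difference of -3.78 ± 0.69 (adjusted p = 0.019). It overlapped between genotypes through KO MII replicate 1, at 60.1, and shared 31.1% of its windows with the annotated gene Gm26920. Its neighbour Zfp14 in the same tandem group did not pass (1.12 ± 0.52, adjusted p = 0.261). Zfp992 (chr4:146449023-146470292) ran from 209.2 to 654.9 in WT (median 464.5) and from 122.3 to 220.3 in KO (median 175.1), a difference of -1.45 ± 0.31 (adjusted p = 0.04), with overlap across stages but not within any. It shared 28.6% of its windows, most of them with Zfp991. Leaving out each of the 12 libraries in turn ended the call of Zfp992 in 10 cases, of Zfp82 in 3, of Zfp820 in 2 and of Zfp870 in 1.

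Zfp618, a protein that works with UHRF2 at hydroxymethylated DNA, was higher in KO. Its scaled counts ran from 15.9 to 111.3 in WT (median 68.4) and from 159.0 to 449.5 in KO (median 258.9), with no overlap (1.96 ± 0.45, adjusted p = 0.0475). Zfp971, a KRAB gene at chr2:178023284-178034022, ran from 39.0 to 363.1 in WT (median 217.8) and from 205.6 to 817.8 in KO (median 498.7), overlapping across stages but not within any (1.41 ± 0.32, adjusted p = 0.0498), and shared 22.1% of its windows. Leaving out 1 library ended the call of Zfp618 in 10 of 12 cases and of Zfp971 in 11 of 12. Zfp825 (-4.42 ± 1.04, adjusted p = 0.0543) missed the threshold.

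**Figure D2:**
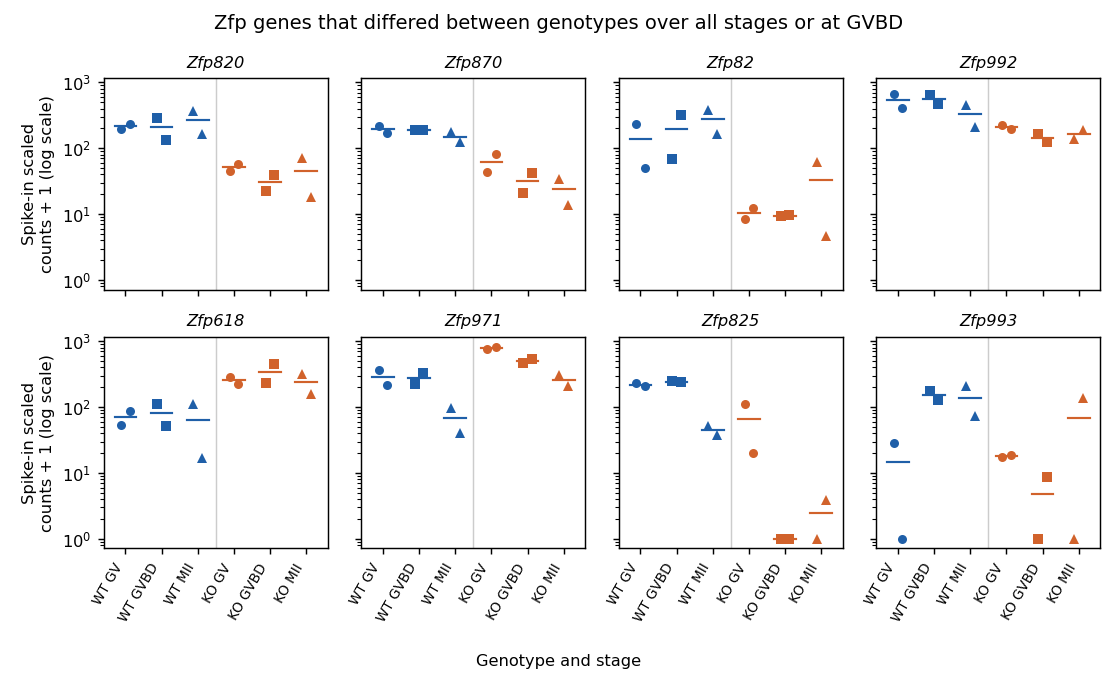
Spike-in scaled counts plus 1 (log axis) of 8 Zfp genes in each group, 1 point per library with a bar at the mean, blue for WT and orange for KO. Zfp820 and Zfp870 lie lower and Zfp618 higher in every KO library than in any WT library, while the KO MII pair of Zfp993 lies far apart, at 0 and 136.8.

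Separation in all 12 libraries was counted as well. By spike-in scaled counts 2 of the 200 genes were higher in every KO library than in any WT library (1.09% of all genes tested) and 3 were lower (0.432% of all genes tested). The 2 were Zfp618 and Zfp664, and the 3 were Zfp820, Zfp870 and Zfp141. Zfp664 (0.79 ± 0.22, adjusted p = 0.096) and Zfp141 (-1.39 ± 0.36, adjusted p = 0.0713) did not pass the test. By CPM the numbers were 3 and 11, beside 0.941% and 1.25% of all genes tested, and Zfp618, Zfp820 and Zfp870 were apart on both scales. The calls over all stages depended on single libraries. There were 0 without KO GVBD replicate 1 and 16 without KO MII replicate 2. There were 2 without WT GVBD replicate 2 or WT MII replicate 1, and 3 without WT GV replicate 2, WT GVBD replicate 1, KO GV replicate 2, KO GVBD replicate 2 or KO MII replicate 1. Without KO GVBD replicate 1, Zfp870 had a difference of -2.18 and Zfp820 of -2.36, each with an adjusted p of 0.0524. With TMM the calls were 4 higher and 13 lower. The share of all genes called under these settings is not given here, so these counts do not set the Zfp genes apart. The cumulus and granulosa list was higher and the keratinocyte list lower in KO within each stage, and their part was not tested.

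At MII the genotypes differed in 2 genes of the chromosome 2 group (chr2:175469985-176719085), both higher in KO (1.0% of the 200, against 0.501% higher and 0.302% lower of all genes tested). Zfp966 was listed at 0 in both WT libraries and had 319.3 and 106.0 scaled counts in the KO libraries, at least 111-fold higher with 3 counts per library as the floor (adjusted p = 9.44e-07). Zfp973 had 0 and 2 raw counts in WT and 144 and 119 in KO (adjusted p = 0.000258). The ratio per spike-in count was 182.7, with a 95% exact interval from 50.1 to 1517 that covers counting error only. Zfp966 and Zfp973 passed the count filter through the KO libraries alone, so their p-values depend on that filter. The median over the 200 genes was -0.01, and 0.30 over all genes tested. Counts under other settings, given next, have no share of all genes beside them. Neither gene was called without either WT MII library, nor with median-of-ratios scaling, and Zfp966 alone remained with TMM. The number of Zfp genes called was 0 without WT MII replicate 1 or 2, 5 without KO MII replicate 1 and 6 without KO MII replicate 2.

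In WT MII each of the 4 genes of the group lay under both KO MII libraries. Zfp966 had 390.4 and 313.1 scaled counts at GV in WT, 434.5 and 202.8 at GVBD, and 0 in both MII libraries. Zfp969 had 855.5 and 493.6 at GV and 92.5 and 75.2 at MII in WT, and 557.4 and 222.8 at MII in KO. Zfp965 had 62.2 and 41.9 at MII in WT and 288.2 and 175.5 in KO. Zfp973 varied between replicates in WT before MII, with 3 and 155 raw counts at GV and 2 and 120 at GVBD, while its KO libraries held 119 to 256. From GV to MII in WT, Zfp966 (at least 183-fold lower, adjusted p = 1.24e-20), Zfp969 and Zfp965 fell. Zfp966 passed the count filter of that test through the GV libraries alone. In KO the log2 changes of the 4 had a median of -0.90, none past the threshold.

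Because these near copies share bases, the 4 genes were also summed, a sum chosen after their values were seen and not tested. The sum does not restore reads dropped for aligning at more than 1 place. It leaves out Zfp968, which shares 100% of the windows of Zfp969 and had 0 to 18 raw counts per library. In WT the scaled sum was 1510 and 1231 at GV. It was 1391 and 916 in the GVBD pair, and 155 and 118 in the MII pair. In KO it was 1863 and 1517, then 1829 and 1108, then 1309 and 590. The WT MII libraries thus lay under all 10 others.

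**Figure D3:**
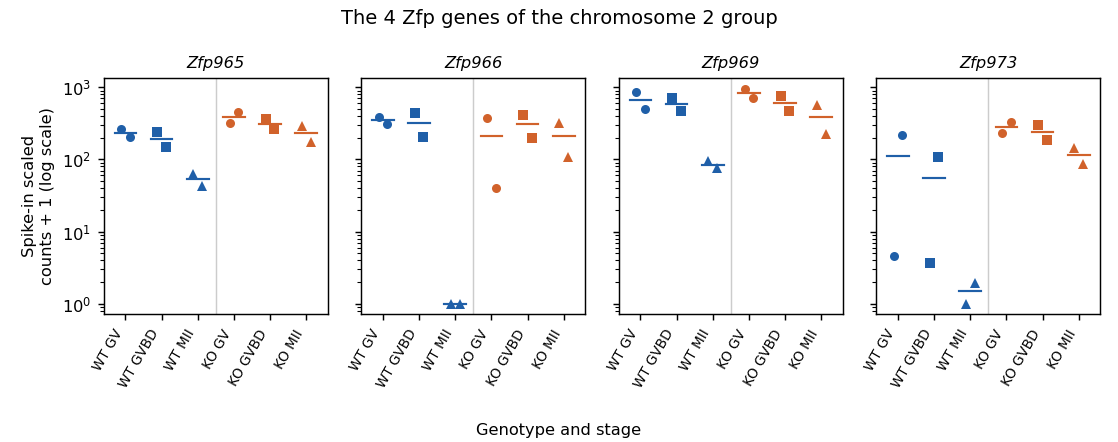
Spike-in scaled counts plus 1 (log axis) of Zfp965, Zfp966, Zfp969 and Zfp973 in each group, 1 point per library with a bar at the mean, blue for WT and orange for KO. In all 4 panels both WT MII libraries lie under both KO MII libraries, and for Zfp966 they lie at 0 scaled counts.

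From GV to GVBD, no Zfp gene passed the threshold in either genotype. Of 200 tested in WT, 0 rose and 0 fell by edgeR, where 0.0409% of all genes tested rose and 0.0102% fell, and of 199 tested in KO, 0 rose and 0 fell, where 0.0367% rose and 0.184% fell. At an unadjusted p under 0.05 there were 10 in WT (5%, against 6.25% of all genes tested) and 9 in KO (4.52%, against 7.65%). DESeq2 called 6 and 2, given without the share of all genes. In WT the Zfp genes had a median change of -0.05 and all genes tested 0.01, and in KO -0.09 and -0.15. Zfp593, which acts in the assembly of the large ribosomal subunit, had 511.4 and 330.0 scaled counts at GV in WT and 71.1 and 100.1 at GVBD (-2.29 ± 0.52, adjusted p = 0.256), and in KO 416.9 and 429.9 against 320.6 and 272.1 (-0.52 ± 0.38, adjusted p = 0.787). Zfp46 had 43.7 and 29.3 at GV in KO and 355.2 and 353.6 at GVBD (3.28 ± 0.49, adjusted p = 0.0568).

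From GV to MII in WT, 39 of 199 Zfp genes fell and 3 rose. These are 19.6% and 1.51% of those tested, against 30.5% and 0.393% of all genes tested. The median log2 change was -0.64 over the Zfp genes and -1.06 over all genes tested, both below 0, and the share of Zfp genes called lower was under that of all genes. The direction depends on the scaling. With TMM, which moves the median of all genes tested to -0.14, the Zfp genes had a median of 0.27, and 26 rose and 15 fell. With median-of-ratios scaling 28 rose and 15 fell. The shares of all genes that rose or fell with these scalings are not given here, so these counts have no background beside them. The number called was 13 without WT GV replicate 1, 14 without WT GV replicate 2, 16 without WT MII replicate 2 and 24 with all 12 libraries in 1 model.

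**Figure D4:**
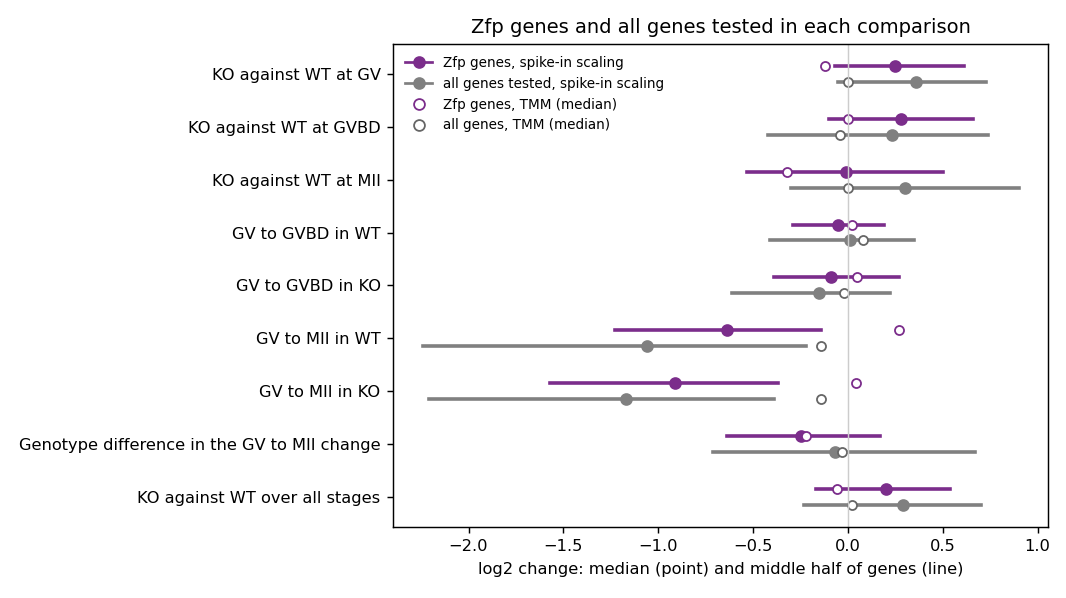
Median log2 change (filled points) and interquartile range (lines) of the Zfp genes (purple) and of all genes tested (grey) in each comparison with spike-in scaling, and the medians with TMM scaling (open points). From GV to MII both sets lie below 0 with spike-in scaling, at -0.64 and -1.06 in WT, and the Zfp genes lie above 0 with TMM.

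Among the genes that fell in WT, Zfp14 had 289.5 and 177.7 scaled counts at GV and 4.79 and 0 at MII (-6.75 ± 0.91, adjusted p = 7.12e-12). Zfp593 went from 511.4 and 330.0 to 26.3 and 9.16 (-4.59 ± 0.69, adjusted p = 7.86e-10). Zfp296, a factor of pluripotent cells and germ cells, went from 447.3 and 210.1 to 31.1 and 20.7 (-3.67 ± 0.68, adjusted p = 9.58e-07). These groups did not overlap, and the 3 genes remained lower and past the threshold with TMM and median-of-ratios scaling. Without WT MII replicate 2, Zfp296 had an adjusted p of 0.0533.

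Zfp950 went from 404.6 and 573.9 to 75.8 and 7.23 (-3.58 ± 0.63, adjusted p = 2.42e-07), while Zfp839 went from 709.5 and 588.0 to 69.4 and 76.1 (-3.15 ± 0.59, adjusted p = 1.32e-06). Zfp94, Zfp319, Zfp972 and Zfp781 had log2 changes of -3.61, -3.23, -3.18 and -3.03. Zfp972 shared 32.0% of its windows, and the counts of Zfp781 are uncertain for its shared windows. Of these 4, Zfp319, Zfp972 and Zfp781 did not pass with TMM. Leaving out 1 of the 4 libraries in turn ended the call of Zfp972 in 3 cases, of Zfp94 in 2 (WT GV replicate 1 and WT MII replicate 2) and of Zfp781 in 1 (WT MII replicate 2).

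The 3 that rose in WT were KRAB genes, and the part of poly(A) tail length in these rises was not tested. Zfp7 went from 122.2 and 74.7 scaled counts at GV to 736.2 and 433.3 at MII (2.57 ± 0.58, adjusted p = 9.67e-05). Zfp993 had 27.3 and 0 at GV and 205.8 and 71.3 at MII (3.30 ± 0.85, adjusted p = 0.000716) on uncertain counts, a call lost without WT GV replicate 2 or either MII library. Zfp46 had 35.6 and 31.0 at GV and 58.2 and 207.2 at MII (1.99 ± 0.78, adjusted p = 0.0362). The call of Zfp46 was lost in 3 of the 4 cases with a library left out, and without WT MII replicate 2 its change was 0.80. Zfp7 was not called without WT GV replicate 1 (adjusted p = 0.0689) or replicate 2 (adjusted p = 0.192).

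In KO, 3 of 199 Zfp genes fell from GV to MII and 0 rose (1.51% lower, against 3.28% lower and 0.00533% higher of all genes tested). Zfp14 went from 380.5 and 256.4 scaled counts to 10.01 and 9.31 (-5.02 ± 0.94, adjusted p = 0.0347). Zfp593 went from 416.9 and 429.9 to 18.01 and 19.3 (-4.49 ± 0.86, adjusted p = 0.0358). Zfp775 went from 852.1 and 766.7 to 45.0 and 101.0 (-3.46 ± 0.81, adjusted p = 0.048). All 3 are among the 42 called in WT. Of the 39 that fell in WT, 37 had a change below 0 in KO and 33 a change of -1 or lower. Of all 199 Zfp genes tested in KO, 179 had a change below 0 and 90 a change of -1 or lower, and 13.1% of all genes tested had a change above 0. The median over the Zfp genes was -0.91, and -1.17 over all genes tested. The number called in KO rested on single libraries: 0 without KO GV replicate 1 or 2, 130 without KO MII replicate 1 and 26 without KO MII replicate 2. It was 18 with DESeq2 and 27 with all 12 libraries in 1 model. The share of all genes called under these settings is not given here.

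**Figure D5:**
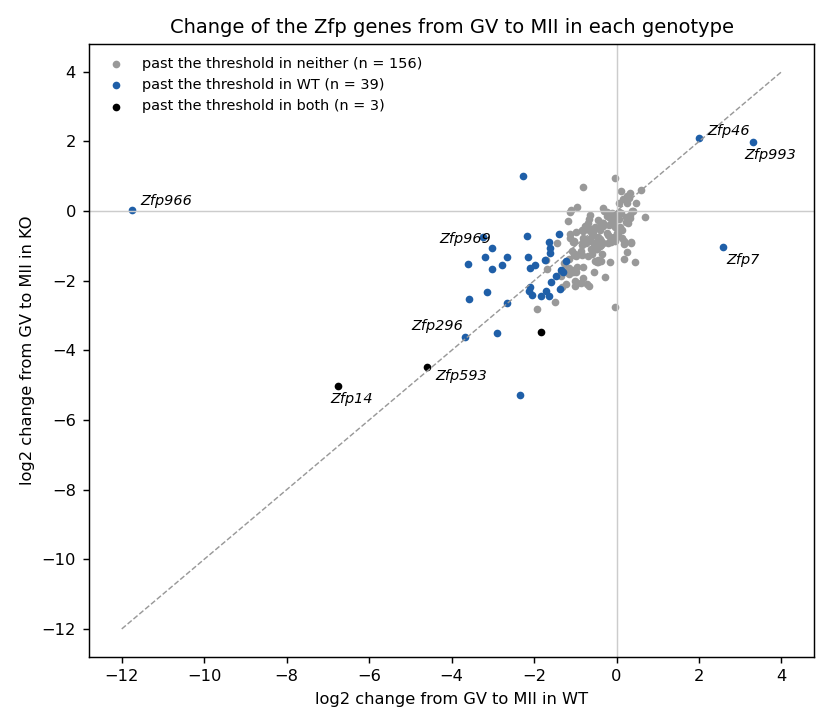
Fitted log2 change from GV to MII in WT (horizontal) and KO (vertical) of the 198 Zfp genes tested in both, with the line of equal change dashed, and colours for genes past the threshold in WT, in both genotypes or in neither. Zfp14 and Zfp593 lie low in both, Zfp966 is low in WT and near 0 in KO, and Zfp7 is above 0 in WT and below 0 in KO.

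The difference between genotypes in the change from GV to MII was tested itself, as an interaction, and no Zfp gene passed. Of all genes tested 0% were called higher and 0% lower by edgeR, so the calls give no background to set the Zfp genes against. At an unadjusted p under 0.05 there were 4 of the 200 (2%, against 5.75% of all genes tested). DESeq2 called 2, and TMM and median-of-ratios scaling called 1 each, given without the share of all genes. Zfp966, with WT at 0 at MII, had an adjusted p of 0.187. Zfp7 had a difference of -3.59 ± 0.86 (KO minus WT, adjusted p = 0.408). A change that passed in WT and not in KO is therefore not shown to differ between them. The median difference was -0.25 over the 200 and -0.07 over all genes tested.

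Of 10 genes with roles in RNA handling and the ribosome 8 were among the 200, and none passed in any comparison of KO with WT. Zfp593 alone fell from GV to MII, in both genotypes. Zfp346, which binds double-stranded RNA, had 40.3 and 24.0 scaled counts at GV in WT and 156.6 and 140.3 in KO, and over all stages a difference of 1.94 ± 0.53 (adjusted p = 0.0854). Zfp598, the ubiquitin ligase of collided ribosomes, varied between WT GV libraries (433.1 and 77.6), with a difference of -0.89 ± 0.52 over all stages (adjusted p = 0.37). Zfp207, a kinetochore and spindle protein also called BuGZ, had 2286 and 2277 at GV in WT and 3401 and 2891 in KO (0.46 ± 0.18, adjusted p = 0.265). Zfp473, a factor of histone pre-mRNA processing, had 322.7 and 616.3 against 1076 and 937.7 (1.10 ± 0.36, adjusted p = 0.212). Zfp106, Zfp638 and Zfp830 did not pass in any comparison either.

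Of 8 genes of pluripotency and the early embryo, 6 were among the 200 and Zfp42 and Zfp462 fell under the limit. Zfp296 fell from GV to MII in WT, and in KO it went from 293.1 and 308.7 scaled counts to 32.0 and 17.2 (-3.61 ± 0.88, adjusted p = 0.0522). Zfp143, a promoter-binding activator, had 659.7 and 520.4 at GV in WT and 1458 and 1148 in KO (1.14 ± 0.26, adjusted p = 0.155). Zfp131, Zfp217, Zfp281 and Zfp706 passed in no comparison. Zfp217 had 99.1 and 2.87 scaled counts in the KO MII libraries.

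Of 6 genes tied to imprints and retroelements, 3 were among the 200. Of these 3, Zfp932 shared 18.5% of its windows, most of them with Gm15446. Zfp445, which protects imprints in the embryo, had 456.8 and 495.0 scaled counts at GV in WT and 737.4 and 407.0 in KO (0.26 ± 0.36, adjusted p = 0.754). Zfp568, a repressor of the placental transcripts of Igf2, had a difference over all stages of -0.08 ± 0.45 (adjusted p = 0.944). Zfp932, a repressor of endogenous retroviruses, fell from 3131 and 3394 at GV in WT to 961.9 and 546.5 at MII (-2.11 ± 0.51, adjusted p = 0.00022), and in KO it had 3412 and 3114 at GV and 1040 and 402.5 at MII (-2.18 ± 0.68, adjusted p = 0.0892).

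Of 17 genes of chromatin and transcription complexes, 10 were among the 200 and none passed between genotypes, with a median difference over all stages of 0.41 and a range of -0.19 to 0.80. The highest was Zfp592, a partner of ZMYND8, at 0.80 ± 0.29 (adjusted p = 0.165). It was the only one of the 10 to pass from GV to MII in WT, going from 2887 and 3046 scaled counts to 1142 and 795.7 (-1.61 ± 0.50, adjusted p = 0.00562). Zfp451, a SUMO ligase, had 983.6 and 899.7 at GV in WT and 1766 and 1664 in KO (0.86 ± 0.20, adjusted p = 0.16). Zfp148, Zfp91, Zfp410, Zfp423, Zfp516, Zfp609, Zfp644 and Zfp687 passed in no comparison.

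The KRAB genes and the genes with fingers alone were set side by side as counts and medians. At GVBD the 108 KRAB genes had a median genotype difference of 0.18, with 5 called lower, and the 81 with fingers alone had 0.45, with none called. Over all stages the medians were 0.10, with 1 called higher and 4 lower, and 0.30, with 1 called higher. From GV to MII in WT they were -0.68 and -0.64. Over all genes tested the medians were 0.23 at GVBD, 0.29 over all stages and -1.06 from GV to MII in WT. Of all genes tested, 1.73% were called lower and 0.807% higher at GVBD. Over all stages the shares were 0.364% lower and 0.9% higher. The classes rest on the patterns searched, which can miss a KRAB box, and the difference between them was not tested.

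By tandem group, the median difference over all stages lay between -0.28 and 0.64 in 13 of the 14 groups and was 1.15 in the chromosome 2 group of Zfp966. At MII it was 4.84 in that group and between -0.64 and 0.51 in the others. The values of that group, 1.15 and 4.84, rest on counts that are uncertain for shared windows. In WT MII, Zfp966 was at 0 and Zfp973 at 2 raw counts over both libraries. The 5 members of a group on chromosome 8 (chr8:69209038-69791178) had differences of 0.11 to 0.90 over all stages, none past the threshold. The 10 members of the chromosome 4 group ranged from -1.69 to 0.19, and Zfp992 was the only one to pass.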

How the data were processed

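Poly(A) RNA of pooled oocytes was sequenced in 12 libraries. According to the submitters' processing notes and the study's methods, the authors used cutadapt 1.9 for trimming, HISAT2 2.0.4 for alignment to mm10 (GRCm38) plus the ERCC sequences, keeping reads with a single alignment, and then StringTie 1.3.4d. The deposited table holds raw counts per gene (56691 genes and 92 ERCC sequences). Which annotation release was used, whether strand counted and which step produced whole counts are not given in the sources used here. Without strand, reads of a gene and an overlapping antisense gene cannot be told apart. The labels describe a dUTP stranded protocol for bulk RNA, the methods a low-input one.

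Of the gene identifiers, 52073 (91.9%) matched a symbol in GENCODE M21. All 200 genes had coordinates and 197 a coding sequence that could be translated in full. Members, lists and tests were chosen with earlier results of these data known. Genes were tested with edgeR 4.0.16 (R 4.3.3): quasi-likelihood test, library sizes proportional to ERCC counts, the default count filter with a minimum of 10, Benjamini-Hochberg adjustment over all genes tested. The filter can keep a gene through the libraries of 1 group alone, and the p-value of such a gene depends on it. A call needs an adjusted p under 0.05 and a log2 change of at least 1. Each pairwise comparison used its own 4 libraries, the comparison over all stages used 12 with stage as covariate, and the interaction used 8. The standard error is the log2 change divided by the root of the F statistic. The study calls the 2 libraries of a group biological replicates, but neither it nor the labels says that they came from separate animals. The p-values thus measure the spread between libraries, which may be in part technical. Fits were tested on simulated data.

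Named genes are the 20 with the most reads, those at the limit of selection, called genes whose groups did not overlap (up to 10 in each direction per comparison) and members of 4 role lists. Domains were found by pattern: a finger as C.{2,4}C.{12}H.{2,6}H in the translated sequence, and a KRAB or SCAN box by its core residues. Alternatives were TMM and median-of-ratios scaling, other count filters, DESeq2 1.42.0, selection by scaled mean, 1 model for all libraries, leaving out each library, and a block on replicate number.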

Additional observations from a re-analysis of the deposited data

Results flagged for a closer look

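Zfp7 met a test for opposite movement from GV to MII: both MII libraries lay above both GV libraries in WT and both lay below in KO. Its scaled counts were 122.2 and 74.7 at GV and 736.2 and 433.3 at MII in WT, and 906.7 and 858.6 at GV and 600.5 and 265.7 at MII in KO. The log2 difference between the changes (KO minus WT) was -3.59, with an adjusted p of 0.408 in the interaction test, so the difference is not shown. Of all 200 genes, 2 met this test. The share of all genes in the data that met it is not given here, so the 2 are not shown to stand out. The other was Zfp606, a KRAB gene named here after its values were seen, with 136.4 and 142.4 at GV and 95.7 and 63.1 at MII in WT, and 69.2 and 51.0 at GV and 95.1 and 98.1 at MII in KO. Its difference was 1.5 (adjusted p = 1), and neither of its changes passed the threshold. The groups of 2 libraries are too small for a test of single outlying libraries.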

How the results depend on the processing

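The counts of Zfp genes called depended on scaling, filter, test and single libraries, and the cause was not tested. Counts under the other settings are given without the share of all genes called, so they do not set the Zfp genes apart. For KO against WT at GV, reported as 0, the count was 6 without a filter on low counts, 1 with at least 10 counts in every library and 9 with DESeq2. At GVBD, reported as 5, it was 0 with TMM, 1 with median-of-ratios scaling, 8 with DESeq2 and 1 with all 12 libraries in one model. At MII, reported as 2, it was 1 with TMM, 0 with median-of-ratios scaling and 0 with at least 10 counts. From GV to GVBD, reported as 0 in both genotypes, it was 5 in WT without the filter, 3 with at least 10 counts and 6 with DESeq2, and 2, 1 and 2 in KO. From GV to MII in WT, reported as 42, it was 24 with all 12 libraries in one model, and with TMM 41, of which 26 were higher and 15 lower, against 3 and 39. From GV to MII in KO, reported as 3, it was 6 with TMM, 6 with median-of-ratios scaling, 11 without the filter, 19 with at least 10 counts, 18 with DESeq2 and 27 with all 12 libraries. For the genotype difference in that change, reported as 0, it was 1 with TMM, 1 with median-of-ratios scaling, 3 without the filter, 1 with at least 10 counts and 2 with DESeq2. Over all stages, reported as 6, it was 17 with TMM, 16 with median-of-ratios scaling, 14 without the filter, 16 with at least 10 counts and 19 with DESeq2. The Zfp genes apart in all 12 libraries, a count added after seeing the data, numbered 5 by spike-in scaled counts and 14 by CPM.

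Leaving out 1 library at a time gave 0 to 4 calls for KO against WT at GV, 0 to 5 at GVBD, 0 to 6 at MII, 0 to 2 from GV to GVBD in WT and 0 to 5 in KO, 13 to 54 from GV to MII in WT and 0 to 130 in KO, 0 to 1 for the genotype difference in that change, and 0 to 16 over all stages. The Zfp genes apart in all libraries then numbered 5 to 12. In these fits a group with 1 library is assumed to vary like the others. Selecting the 200 genes by scaled mean moved no count by more than 1.5 times.

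The groups share replicate numbers, but same-numbered libraries had correlated deviations of -0.22, 0.14 and -0.18 for KO and WT at GV, GVBD and MII, and of -0.05 to 0.08 between stages, over 13273 genes, so the numbers were not taken to pair libraries. With the replicate block the counts were 3 at GVBD, 0 at MII, 16 from GV to MII in KO and 14 over all stages, and within 1.5 times elsewhere. With the numbers crossed, added after seeing the data, the replicate block gave 1 at GV and 0 at MII.

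For the 58 calls of single genes, 410 of the values under other settings remained calls in the same direction, 258 kept the direction without passing, and 1 changed sign. That was Zfp710 from GV to MII in WT, reported as -2.27, at 0.18 without WT GV replicate 2 and -3.14 without WT GV replicate 1. Depth limits the genes near the limit of selection, where the mean count was 72.0.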
